A study of Arabidopsis thaliana with 30 samples.

Results

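These are the genes whose transcript level in systemic leaves of Arabidopsis thaliana was higher at 60 min of root waterlogging and differed little upward from controls at 10 and 30 min. A gene was taken when its mean level over the 21 wild-type libraries was at least 5 FPKM (fragments scaled to gene length and library size) and its difference d was at least 0.7 at 60 min and under 0.3 at 10 and at 30 min. Here d is the mean log2(FPKM + 1) of waterlogged leaves minus that of the control leaves of the same time. Of 32820 genes in the files, 12495 reached the mean level and 80 met all criteria. Genes named DIN, TPS, EXP, IAA or PIF were to be left out, which removed no further gene. The members were chosen by measured values, the FPKM of the wild-type libraries, so all wild-type differences at 10, 30 and 60 min are given as a description without a test.

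The study asked how leaves that were not flooded respond to waterlogged roots, and its title names a systemic wave of reactive oxygen species. Total leaf RNA was sequenced in 30 libraries, 3 for each of 10 groups. The wild type (WT) was Col-0 and provided an untreated group at 0 min, and control and waterlogged groups at 10, 30 and 60 min. Plants labelled rbohD, named for the gene of the NADPH oxidase RBOHD that makes superoxide at the plasma membrane, provided an untreated group at 0 min and a control and a waterlogged group at 60 min. Controls received no waterlogging. The number recorded is 15 plants per genotype and time, which does not by itself give the plants per group or per library. The rbohD allele and the age of the plants are not given in the sources used here. Nothing states that the libraries came from separate experiments, so the p-values measure only the spread between these libraries.

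Some libraries stood apart, and the genotype label was not borne out by the level of its gene. RBOHD itself was at 17.4 ± 0.261 FPKM in WT and 20.99 ± 0.882 FPKM in the libraries labelled rbohD at 0 min, and at 23.4 ± 1.97 and 12.8 ± 0.379 FPKM in the respective controls at 60 min (SD, n = 3). A gene-wide FPKM cannot tell whether an interrupted gene is still transcribed. These libraries are therefore called the libraries labelled rbohD. The 18S ribosomal RNA gene AT3G41768 split the libraries: 20 had 1473 to 2640 FPKM, and 10 had 4050 to 5754 FPKM. The latter were all 9 libraries labelled rbohD and replicate 3 of WT waterlogging at 60 min. The fragment numbers implied by the deposited confidence bounds summed to 10.9 to 13.3 M per library. They did not keep step with FPKM in every gene, so the sum is not a measured depth. The gene PORB, for example, had 1403, 1355 and 1413 implied fragments in WT controls and 1777, 1749 and 1721 in waterlogged WT leaves at 60 min. Its FPKM went from 105, 103 and 108 to 224, 235 and 224. The leaf mesophyll genes summed to 27887 to 38485 FPKM in every library, and of 7 root markers all but SHR, which leaf vasculature also expresses, stayed at or under 1.23 FPKM.

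Of the 80 genes, 62 stayed at 0.1 FPKM or more in all 21 WT libraries, and 59 of these code for proteins. The other 18 fell under 0.1 FPKM in at least 1 WT library. They include 6 small nucleolar RNA genes and 5 plastid genes, their median gene length was 142 bases against 2242 for the 62, and they are described at the end. This split was made after the values were seen. Of the 62, 23 overlap another gene and 20 overlap a gene on the opposite strand. Whether counting used strand is not given in the sources used here, so reads of such neighbours may not be separated. In whole leaves, a change in the number of cells of a type and a change of RNA per cell cannot be told apart.

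Some of the genes belong to known systems of the leaf. NADPH-protochlorophyllide oxidoreductases, encoded by PORA, PORB and PORC, carry out the light-dependent step of chlorophyll synthesis, and PORA is best known from seedlings grown in the dark. Dormancy-associated genes such as DYL1 and DRM2 are known in Arabidopsis as transcripts of dark or sugar-poor tissue. Autophagy delivers cytoplasm to the vacuole, and ATG8 proteins are attached to its membranes. Cysteine-rich receptor-like kinases (CRKs) are plasma membrane kinases of stress and defence signalling.

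The DNA before the gene start is shown for 4 members, all of which hold a TATCCA element, unlike most members. Promoter windows ran from 250 bases before to 50 bases after the annotated gene start in the TAIR10.1 genome of RefSeq, and 59 protein-coding members of the 62 had a window. The TATCCA element (TATCCA, or TGGATA on the other strand), known from rice amylase promoters that respond to sugar, was present in 20 of these 59 windows (33.9%) and in 16.1% of all 27422 windows. The I-box (GATAAG or CTTATC) was present in 23.7% of the member windows and 14.7% of all, and the evening element core (AATATCT or AGATATT) in 18.6% and 11.5%. The G-box CACGTG was present in 3.39% of the member windows and 7.68% of all. The auxin response element TGTCTC, the telo-box core AAACCCT and the GCC-box GCCGCC were present in 16.9%, 13.6% and 0% of the member windows, and in 14.2%, 10% and 2.57% of all. These shares carry no test, and the members' windows had a median GC content of 30.3% against 32% over all windows. PORA and AT2G33830 (DRM2) are shown because in both a TATCCA element and an I-box overlap by shared letters, an arrangement found in 2 of the 59 windows and in 1.36% of all. PORB is shown as the close relative of PORA, and CRK2 as a gene of another role with 2 TATCCA elements and an I-box. The 250 bases before each start are given 5′ to 3′ on the gene's own strand, with TATCCA elements, I-boxes and evening element cores that lie wholly within them in capitals. They are chr5:21992815-21993064 (minus strand) for PORA, chr4:13725296-13725545 (plus strand) for PORB, chr2:14310609-14310858 (minus strand) for AT2G33830 and chr1:26587629-26587878 (minus strand) for CRK2.
PORA: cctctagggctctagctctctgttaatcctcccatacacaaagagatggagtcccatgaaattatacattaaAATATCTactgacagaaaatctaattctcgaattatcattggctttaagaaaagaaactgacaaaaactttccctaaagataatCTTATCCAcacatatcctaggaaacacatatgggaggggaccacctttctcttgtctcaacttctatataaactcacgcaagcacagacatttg
PORB: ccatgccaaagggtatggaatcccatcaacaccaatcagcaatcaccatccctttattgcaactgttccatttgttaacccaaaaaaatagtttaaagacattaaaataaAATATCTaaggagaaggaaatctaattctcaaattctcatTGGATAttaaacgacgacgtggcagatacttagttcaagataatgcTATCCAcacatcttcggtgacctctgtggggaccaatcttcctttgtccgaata
AT2G33830: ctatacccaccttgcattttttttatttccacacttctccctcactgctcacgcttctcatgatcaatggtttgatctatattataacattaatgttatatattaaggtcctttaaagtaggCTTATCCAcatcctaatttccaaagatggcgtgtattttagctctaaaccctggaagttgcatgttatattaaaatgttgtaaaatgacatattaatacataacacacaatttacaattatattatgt
CRK2: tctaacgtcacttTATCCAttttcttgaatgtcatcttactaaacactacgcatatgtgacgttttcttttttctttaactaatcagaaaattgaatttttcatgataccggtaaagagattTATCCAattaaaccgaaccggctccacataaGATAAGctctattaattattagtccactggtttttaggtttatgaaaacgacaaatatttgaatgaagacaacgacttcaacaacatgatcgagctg

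In WT most of the 62 genes stayed near their starting level in every group but waterlogging at 60 min. Their median d was -0.03 at 10 min, 0.14 at 30 min and 0.85 at 60 min on the log2 scale. Relative to WT 0 min, the median level stood 0.14 higher in the 60 min controls and 1.01 higher in the waterlogged leaves at 60 min. In all 62 the waterlogged leaves at 60 min stood at least 0.35 above 0 min, and in 61 the controls stood less than 0.35 below it. In 60 of the 62 all 3 waterlogged libraries at 60 min lay above each of the other 18 WT libraries, and 12.0% of all 17491 tested genes did so. The rule chose the genes by these WT values, so this contrast follows largely from the choice. The 2 exceptions were the long noncoding RNA genes AT3G03475 and AT5G02105. AT5G02105 was at 5.12, 5.85 and 6.81 FPKM in waterlogged leaves at 60 min, and higher in those at 30 min, at 6.47, 7.28 and 8.45 FPKM. Without replicate 3 of the waterlogged group, the library with high ribosomal RNA, 57 of the 62 still had d of at least 0.7 at 60 min, and the median d was 0.84.

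**Figure D1:**
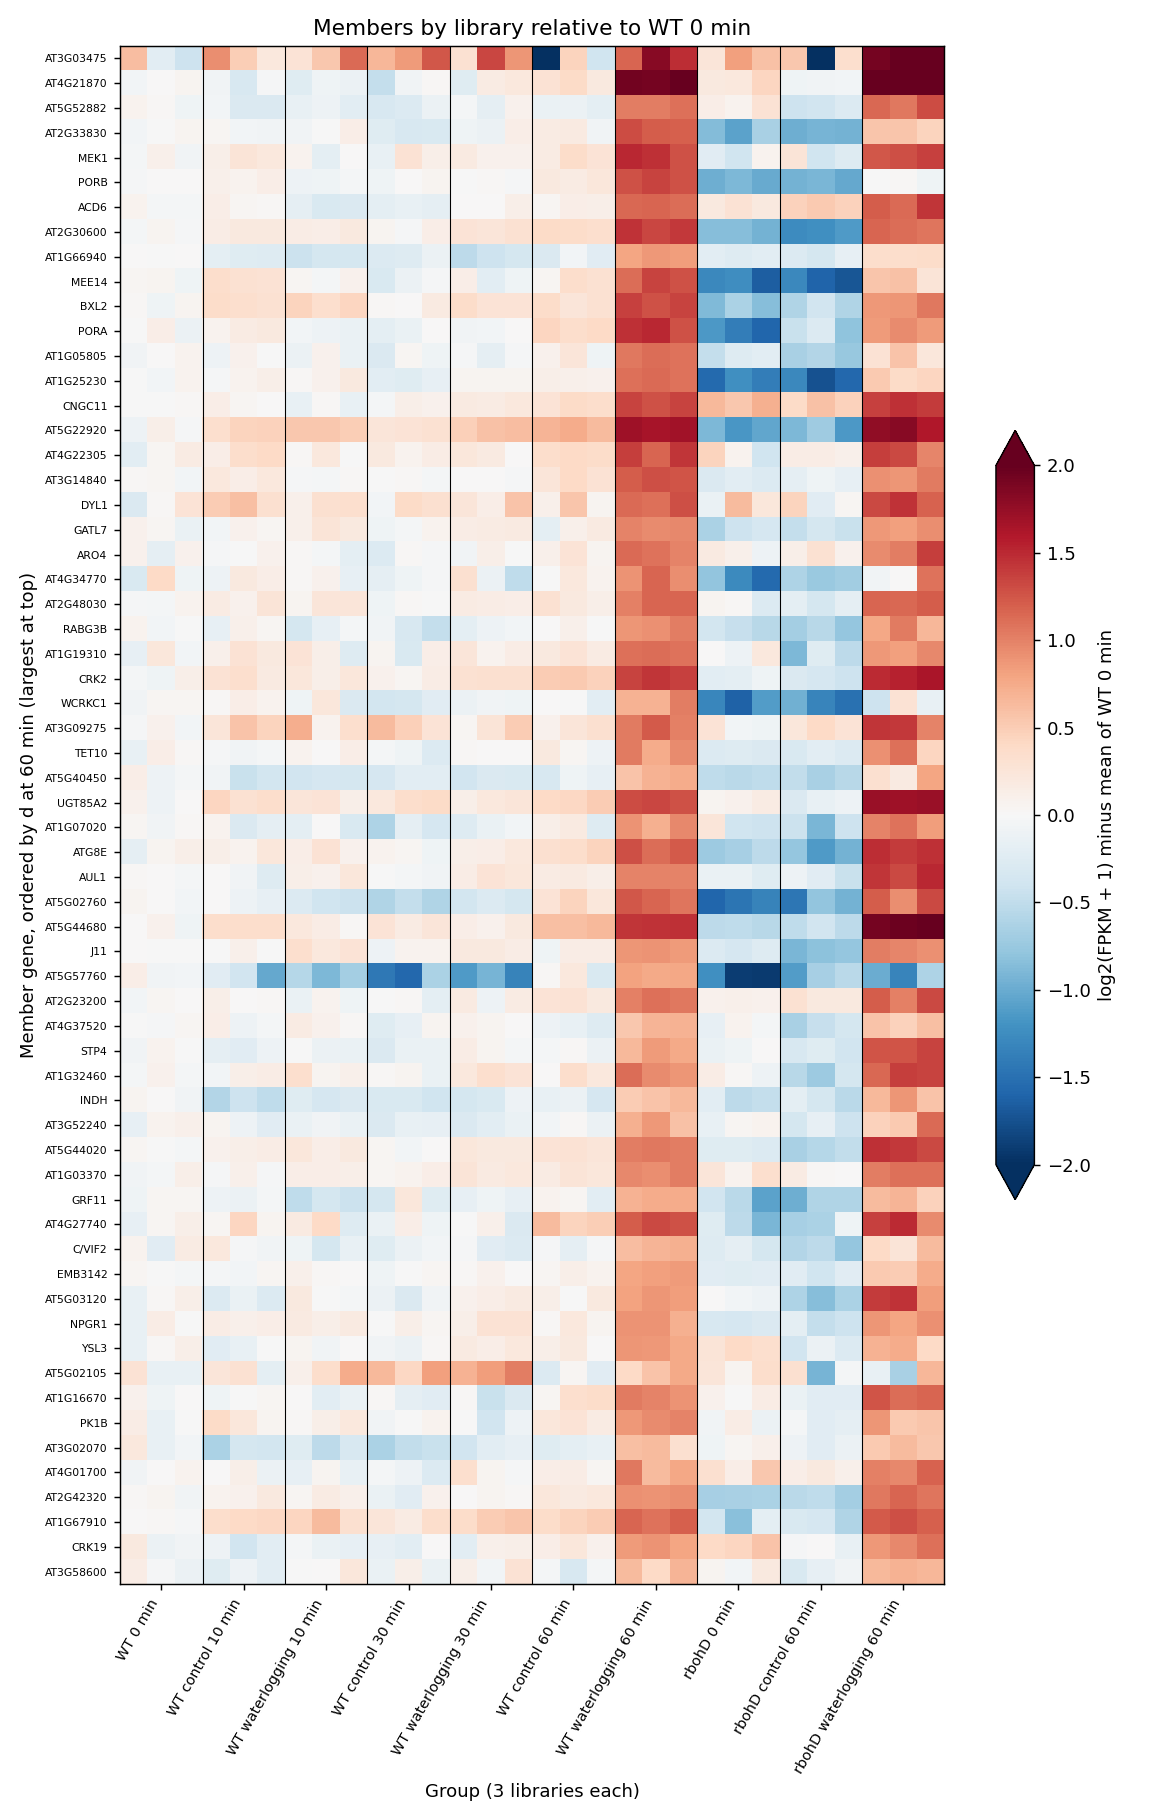
Level of each of the 62 members in each of the 30 libraries, as log2(FPKM + 1) minus the mean of WT 0 min (colour, from -2 to 2), with 3 libraries in each of the 10 groups separated by lines. Most WT cells are pale until waterlogging at 60 min, where the median lies 1.01 above WT 0 min, and the waterlogged libraries labelled rbohD are also high.

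The bounds of the rule were passed narrowly by many genes. The genes just inside the bound at 60 min were AT3G58600, CRK19 and AT1G67910, each with d of 0.70. Just outside were MTO3, RLM3 and AT3G27770, with d of 0.697, 0.689 and 0.685. In all, 22 members had d from 0.7 to under 0.8, and 54 genes that met the other criteria had d from 0.6 to under 0.7. Of 218 genes with d of at least 0.7 at 60 min, 138 were left out for d at 10 or 30 min, 17 of them with a largest early value under 0.4.

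PORA and PORB, the enzymes of light-dependent chlorophyll synthesis, reached their highest levels in waterlogged WT leaves at 60 min. PORA was at 8.48, 9.49 and 7.81 FPKM in WT at 0 min, at 11.9, 11.3 and 11.6 FPKM in the controls at 60 min, and at 25.5, 26.1 and 22.2 FPKM in the waterlogged leaves. All 3 waterlogged libraries were higher than any other WT library. PORB, the more abundant enzyme transcript, was at 105, 103 and 108 FPKM in the 60 min controls and at 224, 235 and 224 FPKM in the waterlogged leaves. At 10 min PORB was at 98.2, 96.2 and 100.3 FPKM in controls and at 85.6, 86.5 and 89 FPKM in waterlogged leaves, lower without overlap, and at 30 min it lay between 86.4 and 94.9 FPKM in both groups. PORC (AT1G03630, named after its values were seen), the remaining family member, was at 120 ± 3.62 FPKM in the controls and 118 ± 2.59 FPKM in the waterlogged leaves at 60 min. It met no criterion of a rise.

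In the libraries labelled rbohD the same 2 genes rose with waterlogging from a lower base. PORA was at 6, 6.88 and 4.48 FPKM in the controls at 60 min and at 16.2, 17.3 and 16.2 FPKM in the waterlogged leaves (log2 difference 1.39, SE 0.10, adjusted p by limma 5.49e-11). PORB was at 46.9, 48.5 and 44.5 FPKM in the controls and at 91.3, 92.8 and 86 FPKM in the waterlogged leaves (log2 difference 0.93, SE 0.04, adjusted p by limma 5.97e-15). The groups did not overlap for either gene. With waterlogging, PORB in these libraries stayed below the level of unflooded WT leaves at 60 min, and PORA stayed below waterlogged WT leaves. PORC did not pass the test, with a log2 difference of 0.05 (SE 0.06, adjusted p by limma 0.513). PORB overlaps AT4G27450 on the opposite strand, a gene that also rose in the libraries labelled rbohD (2.38, SE 0.08, limma adjusted p = 1.65e-17), and the part of shared reads in the PORB values was not tested.

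Across the members, the response of the libraries labelled rbohD to 60 min of waterlogging is the main comparison that the choice of genes did not use. In limma across all genes, 62 of the 80 were higher in waterlogged leaves than in controls and 1 was lower, at an adjusted p under 0.05. Over all tested genes 26.3% were higher and 32.7% lower. Of the 62 genes at 0.1 FPKM or more in all WT libraries, 60 were higher and none was lower, and 46 were higher by at least 2-fold. Their median log2 difference was 1.31, and that of all tested genes was -0.05. All 3 waterlogged libraries lay above all 3 controls in 60 of the 62, and in 25.2% of all tested genes. The 18S ribosomal RNA levels of the compared groups overlapped, at 4639 to 5290 FPKM in the waterlogged and 4050 to 5466 FPKM in the control libraries. The summed levels of 6 mesophyll markers overlapped too (35569 to 38485 against 33551 to 37376 FPKM). Those of 8 epidermis, guard cell and phloem markers, all detected, did not (397 to 418 against 428 to 456 FPKM), and their part in the result was not tested.

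**Figure D2:**
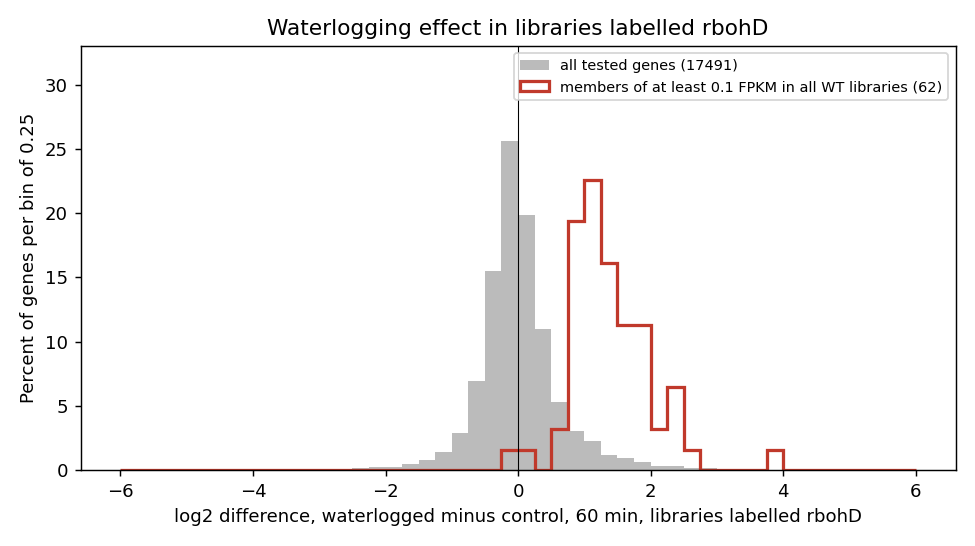
Distribution of the log2 difference between waterlogged and control leaves at 60 min in the libraries labelled rbohD, as percent of genes in bins of 0.25, for all 17491 tested genes (grey) and 62 members (red line). The median of the members is 1.31 and that of all genes is -0.05.

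The 2 members of the 62 that did not pass were AT5G57760 and AT5G02105. AT5G57760, an uncharacterized protein gene, was at 16.2, 15.7 and 15.8 FPKM in waterlogged WT leaves at 60 min and at 9, 10.4 and 6.94 FPKM in their controls. In the libraries labelled rbohD it was at 3.95, 2.95 and 5.43 FPKM in waterlogged leaves and at 3.55, 5.22 and 5.79 FPKM in controls, so these groups overlapped. Its log2 difference there was -0.20 (SE 0.24, limma adjusted p = 0.482). In WT it also moved without waterlogging, from 8.87 ± 0.79 FPKM at 0 min to 3.43 ± 1.66 FPKM in the controls at 30 min and 8.78 ± 1.73 FPKM in those at 60 min (SD, n = 3). The noncoding RNA gene AT5G02105 had a log2 difference of 0.18 (SE 0.27, adjusted p by limma 0.603).

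The dormancy and sugar genes rose in both sets of libraries. AT2G33830 (DRM2), of the dormancy and auxin associated family, was at 24.8, 25.1 and 20.9 FPKM in WT controls and at 56.1, 52.5 and 52.1 FPKM in waterlogged WT leaves at 60 min. Under the rbohD label it went from 10.7, 11.1 and 11 FPKM to 32.8, 32.9 and 30.5 FPKM (log2 difference 1.47, SE 0.08, adjusted p by limma 3.18e-13). Both rises were without overlap, and the waterlogged level was lower in the libraries labelled rbohD. DYL1, its close relative, was at 15.1, 9.12 and 11.1 FPKM in these controls and at 28.4, 31 and 25.8 FPKM in the waterlogged leaves (log2 difference 1.22, SE 0.19, adjusted p by limma 6.88e-06). STP4, a plasma membrane transporter that takes up hexoses, was at 11.4, 11.9 and 10.7 FPKM in WT controls and 19, 22 and 20.6 FPKM in waterlogged WT leaves. Under the rbohD label STP4 went from 9.2, 9.72 and 8.79 FPKM to 29.3, 29.4 and 31.6 FPKM (log2 difference 1.60, SE 0.06, adjusted p by limma 2.87e-16). Its waterlogged libraries labelled rbohD were all above the waterlogged WT libraries. C/VIF2, an inhibitor of invertases, and the cell wall genes BXL2, a beta-xylosidase, and GATL7 rose as well, by 1.06, 1.47 and 1.30.

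ATG8E, RABG3B, AUL1 and AT3G58600 act in autophagy or membrane traffic, and like most of the 62 they rose in the libraries labelled rbohD. ATG8E was at 38.5, 39.4 and 42 FPKM in WT controls at 60 min and at 76.9, 67.8 and 73.1 FPKM in waterlogged WT leaves. In the libraries labelled rbohD it was at 17.6, 13.5 and 15.5 FPKM in controls and at 87.4, 82.6 and 86.1 FPKM in waterlogged leaves (log2 difference 2.39, SE 0.08, adjusted p by limma 2.98e-17). ATG8E therefore ended above the waterlogged WT level from a control level below WT, with no overlap in either case. RABG3B, a Rab7-type GTPase of vacuolar transport, rose by 1.50 (SE 0.10). AUL1, an auxilin-like protein, and AT3G58600, an adaptin-binding coat protein, rose by 1.68 and 0.85.

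**Figure D3:**
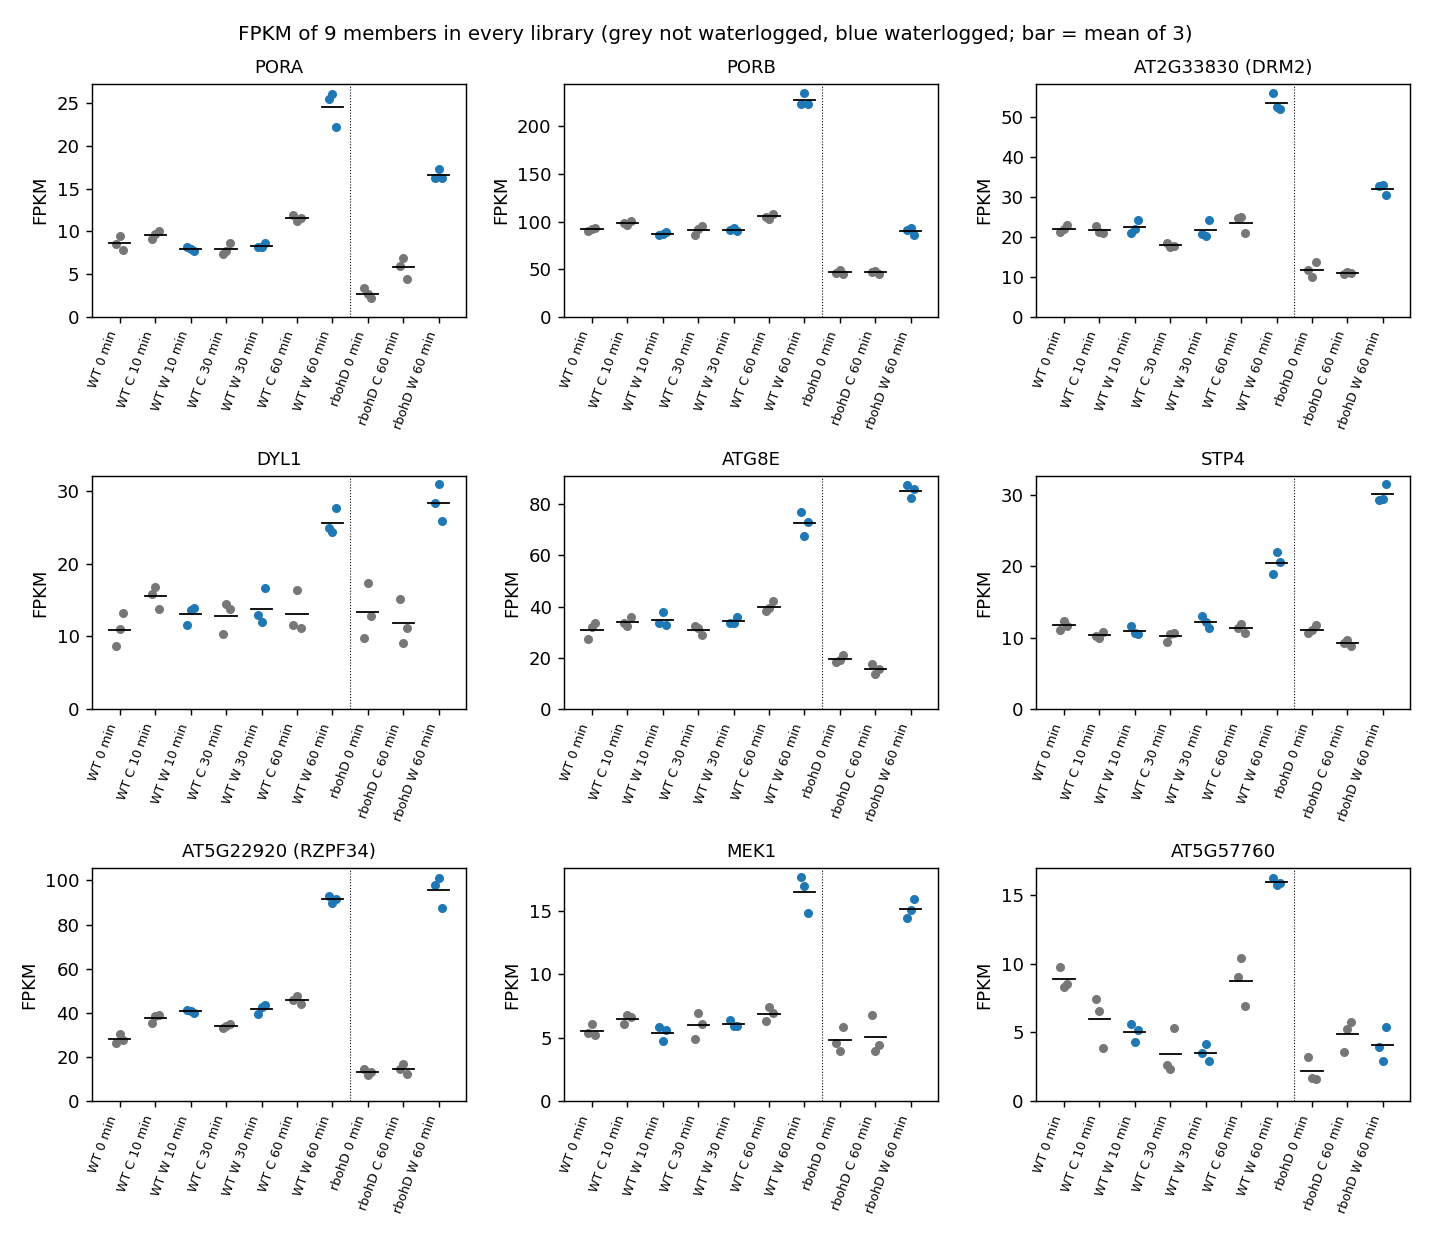
FPKM of 9 members in every library, with points for the 3 libraries of a group, a bar for their mean, waterlogged groups in blue and the others in grey (W, waterlogging; C, control; a dotted line separates WT from the libraries labelled rbohD). ATG8E, STP4 and AT5G22920 reached levels in the waterlogged libraries labelled rbohD at least near those of WT, PORA, PORB and AT2G33830 stayed lower, and AT5G57760 did not rise there.

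Further members with large rises had varied annotations. AT5G22920, the RING zinc finger gene RZPF34, was at 14.6, 16.7 and 12.1 FPKM in controls and 97.9, 101 and 87.6 FPKM in waterlogged libraries labelled rbohD (log2 difference 2.65, SE 0.08, adjusted p by limma 3.76e-18). In WT the same step went from 45.6, 47.8 and 44.1 FPKM to 92.9, 89.9 and 91.7 FPKM. The waterlogged levels of the label groups overlapped, while the controls did not. The BTB/POZ domain gene AT2G30600 rose by 2.33 (SE 0.05), and the RING/U-box gene AT1G19310 by 1.44 (SE 0.14). The HSP20-like chaperone AT4G21870, which had the largest WT rise of the protein-coding members among the 62 (d of 1.74), rose by 2.31 (SE 0.12). J11, a DnaJ-type chaperone of the plastid, went from 42, 44.9 and 46.3 FPKM to 164, 158 and 153 FPKM (log2 difference 1.81, SE 0.06, adjusted p by limma 6.62e-18). The DNA glycosylase family gene AT5G44680 rose by 2.43 (SE 0.05). AT5G44020, an acid phosphatase of the HAD family and the most abundant of the 62, went from 150, 159 and 168 FPKM to 653, 635 and 595 FPKM (log2 difference 1.98, SE 0.04, adjusted p by limma 2.48e-21). Another phosphatase, the calcineurin-like AT1G25230, rose by 1.98 (SE 0.08).

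All 8 members annotated as protein kinases rose in waterlogged leaves labelled rbohD, by 0.62 to 1.90. So did 60 of the 62 genes and 26.3% of all tested genes, so this count is not particular to kinases. CRK2, a receptor-like kinase known in Arabidopsis to phosphorylate RBOHD, was at 13.5, 13.7 and 13.1 FPKM in WT controls and 25.1, 26.5 and 25.3 FPKM in waterlogged WT leaves at 60 min. Under the rbohD label CRK2 went from 7.38, 7.04 and 6.66 FPKM to 27.8, 28.5 and 30.5 FPKM (log2 difference 1.90, SE 0.05, adjusted p by limma 6.67e-19). The waterlogged libraries were above their controls without overlap under either label. MEK1, a kinase that activates MAP kinases, rose by 1.44 (SE 0.13), AT3G14840, the LysM receptor-interacting kinase LIK1, by 1.09 (SE 0.05), and CRK19 by 1.03 (SE 0.09). The smallest called rise of the 62 was that of the kinase-like AT1G66940, at 0.62 (SE 0.06). AT1G16670, AT2G23200 and PK1B rose by 1.37, 0.95 and 0.81.

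ACD6, CNGC11 and AT4G01700 were grouped as defence genes after their values were seen. ACD6, an ankyrin membrane protein of salicylic acid dependent defence, went from 111, 116 and 111 FPKM to 188, 178 and 218 FPKM in the libraries labelled rbohD (log2 difference 0.78, SE 0.06, adjusted p by limma 6.24e-11). CNGC11, a cyclic nucleotide-gated cation channel, and the chitinase family gene AT4G01700 rose by 0.93 (SE 0.06) and 0.90 (SE 0.11). All 3 hormone-related members rose, as did 60 of the 62 genes. AT5G02760, the PP2C phosphatase APD7, went from 3.52, 6.13 and 5.4 FPKM to 27.5, 22.5 and 30 FPKM (log2 difference 2.22, SE 0.12, adjusted p by limma 8.27e-14). The small auxin-up RNA gene AT4G34770 (SAUR1) went from 3.05, 2.68 and 2.84 FPKM to 4.9, 5.24 and 12.1 FPKM (log2 difference 1.03, SE 0.24, adjusted p by limma 0.000792), and a single waterlogged library stood far above the other two. AT1G05805 (AKS2), a bHLH factor that acts in guard cells, rose by 1.03 (SE 0.10). The redox and metal genes rose by 0.87 to 1.17. They were the thioredoxin gene WCRKC1, the peroxidase gene AT4G37520, the metal-nicotianamine transporter gene YSL3 and INDH, which serves iron-sulfur assembly of mitochondrial complex I. The groupings by role were made after the values were seen and cover 37 of the 62.

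Before any treatment, many of these genes already differed between the labels. At 0 min, 30 of the 80 were lower in the libraries labelled rbohD than in WT and 6 were higher, by limma at an adjusted p under 0.05. Over all tested genes 16.0% were lower and 16.4% higher. All 36 belonged to the 62 genes with steady values, and 8 were lower by at least 2-fold. The median difference of the 62 was -0.21, against -0.01 for all tested genes. WT at 0 min entered the choice of genes only through the mean level. The 18S ribosomal RNA level was higher in all 3 libraries labelled rbohD than in all 3 WT libraries at 0 min, so the label and whatever set that level cannot be told apart. The summed mesophyll markers were also lower under the label, at 27887 to 29226 FPKM against 30695 to 32390 FPKM, and the epidermis, guard cell and phloem markers were higher, at 418 to 433 against 390 to 399 FPKM. Their part in the result was not tested.

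**Figure D4:**
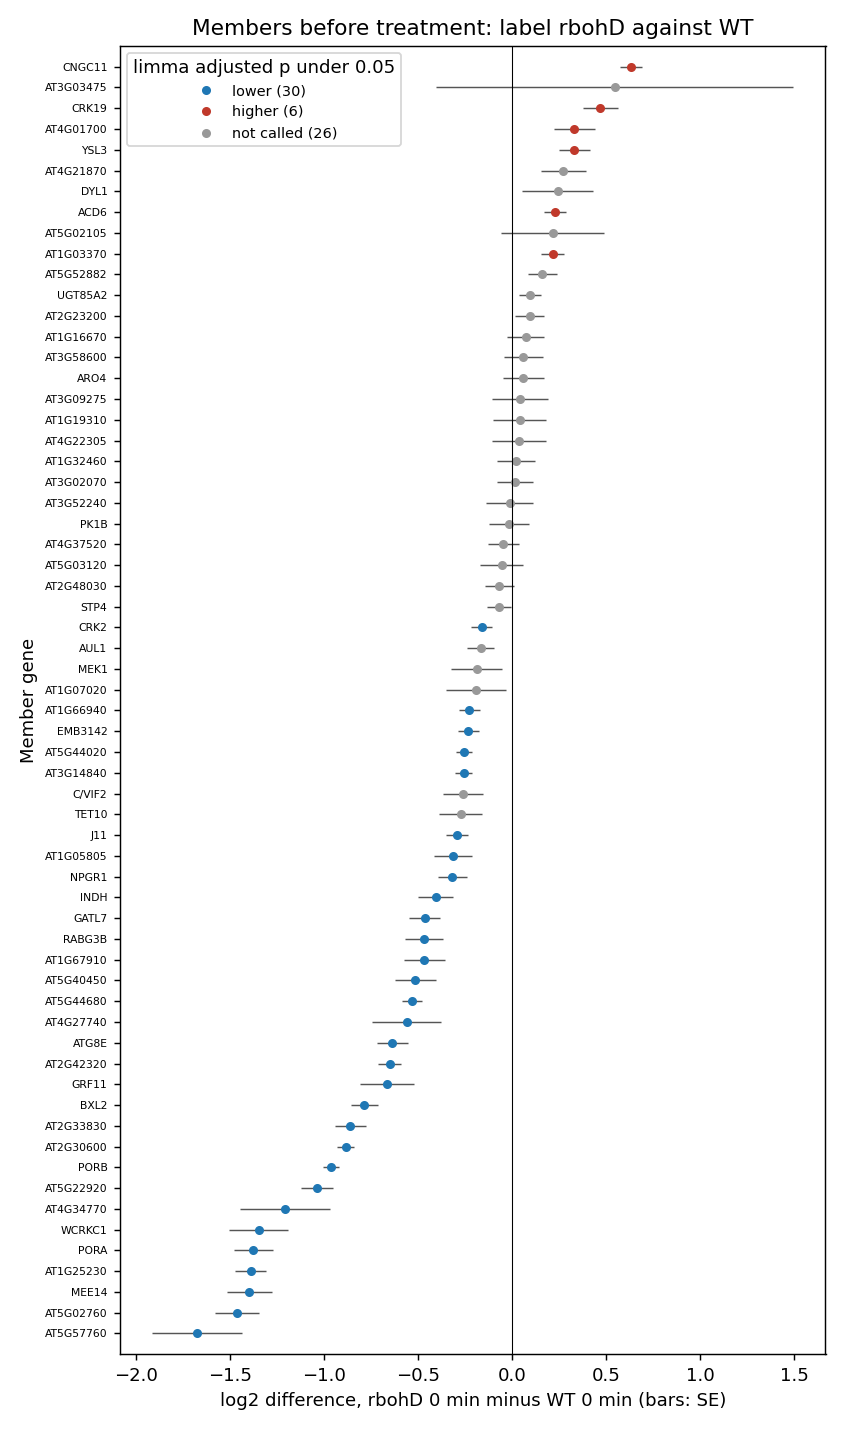
Difference between the libraries labelled rbohD and WT at 0 min for the 62 members, on the log2(FPKM + 1) scale, with bars for the SE, blue for the 30 called lower, red for the 6 called higher and grey for the 26 not called. The members spread from -1.67 to 0.63.

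The members lower under the label before treatment included genes of most roles. AT5G57760 was at 9.78, 8.34 and 8.5 FPKM in WT and at 3.23, 1.65 and 1.62 FPKM in the libraries labelled rbohD (log2 difference -1.67, SE 0.24, adjusted p by limma 6.2e-06). AT5G02760 was at 11.8, 11.4 and 10.9 FPKM against 3.12, 3.47 and 3.9 FPKM (log2 difference -1.46, SE 0.12, adjusted p by limma 5.89e-10). MEE14, a gene named for embryo arrest in mutants, was at 4.17, 4.24 and 3.78 FPKM against 1.06, 1.13 and 0.612 FPKM (log2 difference -1.40, SE 0.12, adjusted p by limma 1.99e-09). None of these groups overlapped. PORA was at 3.33, 2.65 and 2.18 FPKM under the label (-1.37, SE 0.10), and PORB at 46.1, 48.9 and 45 FPKM against 90.1, 92.5 and 92.7 FPKM in WT (-0.96, SE 0.04, limma adjusted p = 1.26e-14). Further members lower by at least 2-fold were AT1G25230, WCRKC1, AT4G34770 and AT5G22920. DYL1, STP4 and MEK1 did not pass, with differences of 0.24, -0.07 and -0.19.

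The 6 members that were higher under the label were led by CNGC11. It was at 10, 10.1 and 10.4 FPKM in WT and at 16.5, 15.2 and 17.3 FPKM in the libraries labelled rbohD at 0 min (log2 difference 0.63, SE 0.06, adjusted p by limma 6.87e-09). CRK19 differed by 0.47 (SE 0.09, limma adjusted p = 0.000378), AT4G01700 by 0.33 (SE 0.11, limma adjusted p = 0.0235) and ACD6 by 0.23 (SE 0.06, limma adjusted p = 0.00425). The others were YSL3 and AT1G03370, a gene for a protein with C2 and GRAM domains. Of the 30 members lower at 0 min, 29 rose in waterlogged leaves labelled rbohD at 60 min, and AT5G57760 was the exception. All 6 higher members rose too. In that comparison 60 of the 62 genes and 26.3% of all tested genes rose, so these counts set neither group apart from the other members.

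Without waterlogging, 60 min brought smaller changes in the libraries labelled rbohD. Against 0 min, 17 of the 80 members were lower and 5 higher in the controls at 60 min, by limma at an adjusted p under 0.05, where 13.0% of all tested genes were lower and 10.2% higher. With quantile normalization 14 members were lower and 7 higher, with 1746 and 2632 of all genes, and with equal totals over nuclear protein-coding genes 20 were lower and 5 higher, with 2770 and 1312. In the FPKM as deposited, 2271 of all genes were lower and 1780 higher. The members that were higher were PORA, AT5G57760, AT5G02760, ACD6 and BXL2. PORA rose from 3.33, 2.65 and 2.18 FPKM at 0 min to 6, 6.88 and 4.48 FPKM (log2 difference 0.86, SE 0.10, adjusted p by limma 8.7e-07). The largest falls among the 17 were those of AT5G03120, an uncharacterized protein gene (-0.65, SE 0.11), AT1G19310 (-0.60, SE 0.14), YSL3 (-0.59, SE 0.08) and AT1G32460 (-0.56, SE 0.10). All 17 rose in the waterlogged leaves against these controls, a comparison that shares the control libraries. So did 60 of the 62 genes.

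Against 0 min, the waterlogged leaves labelled rbohD had 61 of the 80 members higher and none lower, by limma at an adjusted p under 0.05. Over all tested genes 23.1% were higher and 31.7% lower. This comparison shares its waterlogged libraries with the comparison against controls and its 0 min libraries with that of the controls over time. Among the 62 the largest differences in it were those of AT5G22920 (2.76, SE 0.08) and AT5G02760 (2.62, SE 0.12). AT5G57760 was higher than at 0 min here (0.70, SE 0.24, limma adjusted p = 0.0165), as were its controls.

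The levels under the labels stood closer after waterlogging than without it. The median difference of the 62, libraries labelled rbohD minus WT, was -0.45 in the controls at 60 min and 0.04 in the waterlogged leaves at 60 min. In the controls 42 of the 62 lay at least 0.35 below WT and 1 lay at least 0.35 above, whereas in the waterlogged leaves 12 lay below and 7 above by that much. Over all tested genes the medians were -0.0049 and -0.04, with 2448 of 17491 genes below and 1729 above by that much in the controls, and 1931 below and 1604 above in the waterlogged leaves. The 18S ribosomal RNA level also split by label in the controls, and its part was not tested. These values share the WT libraries that chose the genes and carry no test.

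Genes of these and other pathways were examined through 15 lists and families, of which 4 held a member and 11 did not. The counts for a list include its members. Of 22 tested genes of a list for dark and low sugar, 21 rose and 1, DIN9, fell in waterlogged leaves labelled rbohD, with a median of 1.75, where 26.3% of all tested genes rose and 32.7% fell. Only DYL1 and AT2G33830 of that list were members, since 12 of its genes had d under 0.7 at 60 min in WT, 5 had d of at least 0.3 at 10 or 30 min and 3 had a mean under 5 FPKM. The asparagine synthetase gene ASN1 of that list, for example, rose by 4.43 (SE 0.05, limma adjusted p = 5.76e-25). The list and its direction were known from earlier results of these data and are not independent evidence. Of 25 autophagy genes tested, 9 rose, and ATG8D and NBR1 fell, with a median of 0.19. Among the other ATG8 genes ATG8F rose by 0.86 (SE 0.09) and ATG8H by 0.64 (SE 0.15), well below ATG8E. Of 45 SAUR genes 15 rose and 13 fell, and of 40 SWEET, STP and UMAMIT transporters 10 rose and 18 fell, with medians of -0.03 and -0.17. The hypoxia list held no member, and of its 8 tested genes 2 rose and 3 fell, with a median of -0.17. The shares that rose in the SAUR, transporter and hypoxia lists lie near that of all tested genes and show no particular rise of these families. Fewer of the autophagy genes fell than of all tested genes. Several lists without a member lay further off. For example, 16 of 20 XTH genes and 14 of 20 amino acid catabolism genes rose, and 3 of each fell. Of 15 circadian clock genes 11 fell and 3 rose, and of 8 sulfur starvation genes 6 fell and none rose. The lists were not tested as sets.

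The 18 genes that dropped under 0.1 FPKM in a WT library met the rule mostly through few libraries. They make up 9 of the 10 members with the largest d at 60 min, from 2.51 to 4.78, and AT3G03475 is the remaining one. For 15 of them at least 1 WT library was listed at 0. The small nucleolar RNA gene AT4G39361 was listed at 0 in 29 libraries and at 397 FPKM in replicate 2 of WT waterlogging at 60 min. The protein-coding gene AT2G12461 was listed at 160, 0 and 129 FPKM in that group, at 0 in all other WT libraries, and at 523 FPKM in replicate 2 of the rbohD controls at 60 min. The small nucleolar RNA gene AT1G04197 was above 0 in a single library, at 187 FPKM, and AT4G37095 in 2, at 264 FPKM in replicate 1 of WT 0 min and 337 FPKM in replicate 1 of WT waterlogging at 60 min. AT4G39366, psbN and AT5G27889 were above 0 in 4, 3 and 5 libraries of several groups. ATCG00960 and ATCG01170 carried the same values in every library. In none of the 18 did the waterlogged WT libraries at 60 min lie wholly above the controls, where 23.0% of all tested genes did. The description of genes rising at 60 min therefore does not hold for these. In all 62 these libraries lay wholly above the controls, by WT values that chose the genes. Of the 62, AT3G03475 and AT5G02105 were not above every other WT library.

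In the libraries labelled rbohD, AT5G03185 and psbE, which encodes a subunit of cytochrome b559, were the members of the 18 called higher with waterlogging, and ATCG01230 was called lower (-2.86, SE 0.85, limma adjusted p = 0.0061). psbE was listed at 6.32, 0 and 0 FPKM in controls and 11.2, 5.69 and 22.6 FPKM in waterlogged leaves (limma adjusted p = 0.0244), groups that overlap. Its limma adjusted p was 0.101 without control replicate 2, 0.0992 without control replicate 3 and 0.0954 without waterlogged replicate 3. AT5G03185, a noncoding RNA gene, was at 8.02, 0.00746 and 0.858 FPKM in controls and at 47.6, 23.9 and 81.1 FPKM in waterlogged leaves (limma adjusted p = 0.0163), with limma adjusted p of 0.0728 without control replicate 2 and 0.0552 without waterlogged replicate 3. AT4G28755 ranged from 0.0022 to 5056 FPKM in WT. It overlaps AT4G28750 on the opposite strand, and its log2 difference did not pass the test (limma adjusted p = 0.0842), but passed without control replicate 1 (0.0272) or 3 (0.0328). AT2G12461 passed as lower without control replicate 1 or 3 (0.0295 each). Of the 62, the noncoding RNA gene AT3G03475 was the least steady, at 50.1, 0.0834 and 43.3 FPKM in controls and 131, 145 and 364 FPKM in waterlogged leaves labelled rbohD (3.83, SE 0.95, limma adjusted p = 0.0014, and 0.0908 in a fit of these groups alone). It overlaps MTO3, the gene just outside the bound, on the opposite strand. MTO3, an S-adenosylmethionine synthetase gene, rose there by 1.17 (SE 0.05, limma adjusted p = 1.77e-15).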

How the data were processed

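RNA from leaves was sequenced in 30 libraries, and groups and replicate numbers were taken from the sample titles. The deposited files give FPKM per gene with confidence bounds, per the file headers. The submitters' processing notes name Trim Galore 0.6.7, HISAT2 2.2.1, Cufflinks 2.2.1, Cuffdiff and TAIR10, with no further settings. FPKM as the authors made it is scaled to library size and gene length and is not a count. Values at low depth came out as whole fragments in 49.4% to 53.1% of cases (tolerance 0.05), so counts were not recovered. Of 32826 rows, 2 repeated identifiers and 2 genes with a failed status were left out. The TAIR10.1 table of RefSeq held 99.1% of the identifiers and 75 of the 80 members. Boundaries were the same for 99.9% of matched genes.

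Values were transformed as log2(FPKM + 1), which understates changes of low genes. All 17491 genes averaging 1 FPKM or more over the 30 libraries were fitted in limma 3.58.1 (R 4.3.3) with all 10 groups (20 residual degrees of freedom), and Benjamini-Hochberg adjusted p under 0.05 was a call, two-sided. All 80 members were tested. The differences of the 4 tested comparisons use no wild-type value that chose the members, except WT 0 min, which entered through the mean level. Their SE and p-values also draw on the spread within all WT groups, since the fit shares it across groups. Python 3.11.15 with pandas 2.3.3, matplotlib 3.10.9 and numpy 2.4.6 made the tables and plots. The fit was tested on simulated data for the comparison of waterlogged with control leaves labelled rbohD.

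The members, lists, comparisons and alternatives were chosen with earlier results of these data known. Genes were named by rule: the 10 members with the largest d at 60 min, the 5 largest and 5 smallest differences of waterlogged against control leaves and of controls over time in the libraries labelled rbohD, the 3 largest calls in each direction between labels at 0 min, the 5 most abundant, list members and the 3 genes on each side of the bound. Other members, grouped by role, were chosen after their values were seen. Alternatives changed the pseudocount, filter, scaling, samples fitted, replicate block and each library.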

Additional observations from a re-analysis of the deposited data

How the results depend on the processing

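The counts of called members kept their size within 1.5 times under a pseudocount of 0.1, no filter, quantile normalization, a filter at 5 FPKM, eBayes with trend and robust options, a fit of only the groups compared, a replicate block across all groups, and nuclear protein-coding genes at equal totals, the last chosen after seeing the data. The replicate block across all groups gave 63 called members for waterlogged against control leaves labelled rbohD, 23 for their controls over time, 61 for waterlogged leaves against 0 min and 36 for the labels at 0 min, where 63, 22, 61 and 36 were called without it. A replicate block in a fit of only the groups compared, also chosen after seeing the data, gave 6 called members for the controls over time and 23 for the labels at 0 min. It leaves few degrees of freedom, and no label says that the numbers pair the libraries. Same-numbered libraries deviated together with correlations of -0.093 to 0.07. At 0 min each library correlated best with its own number in the other label, a hint from the data and not from the design. Leaving out each library in turn gave 61 to 65, 18 to 24, 59 to 61 and 33 to 36 called members in the same order, and 74 to 89 members by the rule. The number of members was 147 for a mean bound of 1 FPKM, 47 for 10 FPKM and 31 with d of at least 1. Without replicate 3 of WT waterlogging at 60 min 77 genes met the rule, 66 of them among the 80. No result reversed. Among single genes, the calls of psbE, AT3G03475 and AT5G03185 were lost under some of these settings, with adjusted p of 0.101, 0.0908 and 0.0728 at the most, and AT1G09713, AT2G12461 and AT4G28755 gained one. The cause was not tested.

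Precision is limited by 3 libraries a group and by low levels, and FPKM of short genes is the least certain. The implied fragments per library had a median of 279 for the median member of the 62 and 7.68 for the lowest. These numbers were derived from the confidence bounds and are not read counts.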
